A study of Mus musculus with 4 samples.

Results

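The Ifi200 family is a group of neighbouring mouse genes for interferon-inducible proteins, several of which bind nucleic acid. Most of the proteins join a pyrin domain, which binds other pyrin domains, to at least 1 HIN domain, which contacts DNA. Aim2 is the best understood of them: on meeting DNA in the cytosol it recruits Pycard (ASC) and caspase-1, and the complex, an inflammasome, processes interleukin-1 and opens the cell membrane. Ifi204 has been tied in mouse macrophages to signalling through Sting1 and to interferon production. Its relatives are known mainly as nuclear, interferon-inducible proteins of blood cells. The 7 members described here, Ifi203, Ifi204, Ifi207, Ifi209, Ifi211, Mndal and Aim2, were taken by name, and all 7 were rows of the count tables, which hold 16342 genes in all.

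The mice were C57BL/6 males, 13 weeks old, and the tissue was the corpus callosum. Single cells were stained for CD11b, a myeloid integrin, and the live nucleated cells that carried it were collected by flow cytometry. Week 0 stands for 2 libraries from mice not treated, and week 5 for 2 libraries from mice given cuprizone, a copper chelator that kills oligodendrocytes and strips myelin in mice. RNA was counted from its 3′ end, each molecule by a unique molecular identifier (UMI), with 1000 cell barcodes and 2415001 to 6559032 UMIs per library. The labels do not say that libraries of a week came from separate animals, so a p-value here measures the spread between 2 libraries, which may be technical. After filtering, 3680 cells were kept, 885 to 958 per library, and their median depth was 1525 and 3919 UMIs in week 0 replicates 1 and 2, and 6117.5 and 2495.5 in week 5 replicates 1 and 2. The sort is for myeloid cells, and microglia markers summed to 19572 to 37109.5 CPM (counts per 1000000 UMIs) in the 4 libraries. Other cells came with it unevenly: summed markers of T or NK cells stood at 180 CPM in week 5 replicate 2 and 8.99 to 11.9 in the others, neutrophil markers at 300.2 in week 0 replicate 2 and at most 2.48 in the others, and choroid plexus markers at 1.83 in week 0 replicate 2 and 848 to 2139 in the others. Of all barcodes, 6 occurred in more than 1 library.

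The members lie together on chromosome 1 (GENCODE M21, mouse build GRCm38). Aim2 is at chr1:173350879-173466040 and Ifi209 at chr1:173630917-173647928, both on the plus strand. On the minus strand follow Ifi207 at chr1:173723427-173741747, Ifi204 at chr1:173747293-173766943, Mndal at chr1:173849126-173942491, Ifi211 at chr1:173896345-173913046 and Ifi203 at chr1:173920407-173942672. Within 500 kb of the span of the members, 43 genes other than the protein-coding genes of the family are annotated by RefSeq, among them the pseudogene Ifi203-ps, and 1 of them, Cadm3, was in the tables, with 5 UMIs in all, so no neighbour could be tested.

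The family is known for its response to interferon, so the 100 bases before the annotated start site are shown for 6 members (RefSeq, GRCm38.p6, 5′ to 3′). No window was available for Ifi204, so nothing is said here on its upstream bases. Ifi203 has 2 annotated start sites with a window and Mndal has 2 as well, and 1 window of each, chosen with the matches known, is printed. Capitals mark the core of the interferon-stimulated response element, a pair of GAAA repeats set 2 bases apart, read on both strands; it is a sequence bound by interferon-activated transcription factors.

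Aim2, chr1:173420504-173420603, plus strand: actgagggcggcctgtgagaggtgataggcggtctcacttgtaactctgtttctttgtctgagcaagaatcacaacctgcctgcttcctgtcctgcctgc

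Ifi207, chr1:173741810-173741909, minus strand: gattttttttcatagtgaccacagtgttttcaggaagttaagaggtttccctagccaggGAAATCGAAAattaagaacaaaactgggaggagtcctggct

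Ifi211, chr1:173913047-173913146, minus strand: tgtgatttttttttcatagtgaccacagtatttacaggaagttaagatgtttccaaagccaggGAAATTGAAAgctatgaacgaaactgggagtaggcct

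Ifi209, chr1:173630759-173630858, plus strand: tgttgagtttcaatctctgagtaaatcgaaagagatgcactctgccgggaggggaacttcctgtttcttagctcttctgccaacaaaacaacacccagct

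Ifi203, chr1:173942493-173942592, minus strand: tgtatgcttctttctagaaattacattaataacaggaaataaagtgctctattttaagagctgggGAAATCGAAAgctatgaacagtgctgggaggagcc

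Mndal, chr1:173880188-173880287, minus strand: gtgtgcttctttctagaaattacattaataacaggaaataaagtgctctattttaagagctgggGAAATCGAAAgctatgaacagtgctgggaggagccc

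The core was found in windows of 4 of the 6 members that had one, Ifi203, Ifi207, Ifi211 and Mndal, in each of these 4 printed windows on the gene's own strand, starting 35 to 41 bases before the start site. By comparison, 3.99% of 27025 mouse genes with a window of the same 300 bases (250 before the start site to 50 after it) held the core in at least 1 window on either strand, and 3.44% of all 32851 windows did. Aim2 and Ifi209 had no match, and neither had the Ifi203 window that is not printed. The only Aim2 window lies inside the GENCODE span of the gene, which begins at chr1:173350879. The bases before that position were not read. With 1 base changed, the core matched at 4 places in the Ifi209 window and at 1 in the Aim2 window, and 35.4% of all windows held a core with at most 1 base changed. Among 6 other genes of the family with a window, 5 held the core. The longest run of bases that windows of Ifi203, Mndal, Ifi206, Ifi208, Ifi213 and Ifi214 all hold, computed from the windows after they had been read, was GGAAATCGAAAGC. Of the 32851 windows, 6 held that run on either strand, which are the windows of these 6 genes and no others. These 6 genes hold it by the way the run was chosen, so the count only describes the windows. The printed stretches of Ifi203 and Mndal share an unbroken run of 96 bases, and those of Ifi207 and Ifi211 a run of 23. By GENCODE, Mndal begins at chr1:173942491 on the minus strand. The stretch printed for Ifi203 thus also lies just before an annotated start of Mndal. The core of the gamma-activated site was in no member window and in 8.30% of all windows. A match is a string of letters and does not show that a factor binds there.

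**Figure D1:**
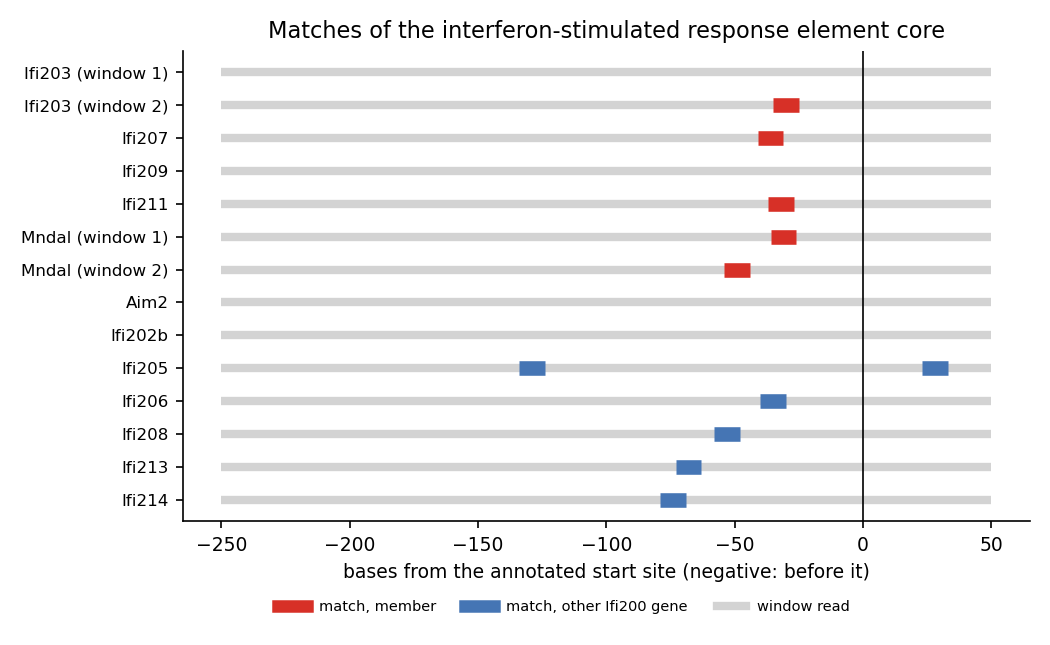
Position of matches of the interferon-stimulated response element core (coloured blocks) in the windows of 300 bases around annotated start sites (grey bars), with the distance from the start site in bases on the horizontal axis. Matches in 4 member windows start 35 to 41 bases before the start site, a second Mndal window has a match on the opposite strand, and 1 of the 2 Ifi203 windows, Aim2 and Ifi209 have none.

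Members resemble each other closely enough for counting to be affected in some of them. Over the last 500 bases of its transcript, where this kind of library reads, Ifi211 shared 57.9% of its stretches of 100 bases with Ifi205 or Mndal, and Ifi209 shared 57.6% of them with Ifi214. For Mndal the share was 3.11%, and for Ifi203, Ifi204, Ifi207 and Aim2 it was 0. Ifi203 and Mndal also overlap by 37 bases of exon on the same strand. The sources used here do not say how the authors assigned reads that match several genes, so the values of Ifi211, Ifi209 and their partners Ifi205 and Ifi214 are uncertain as to which gene of a pair they belong to.

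At week 5, 4 of the 7 members were higher than at week 0: Ifi204, Ifi207, Ifi209 and Ifi211 (edgeR's quasi-likelihood test on UMIs summed per library, Benjamini-Hochberg adjusted p under 0.05 over 11232 genes). None of the 7 fell. Of all genes tested, 2.56% were called higher and 0.223% lower, 2.78% in either direction. The median log2 fold change of the members was 2.39, against -0.01 over all genes tested. Ifi203, Ifi211 and Mndal passed the filter on low counts (2.62 CPM in at least 2 libraries) without reaching its limit in both week 0 libraries, so the count and the median only describe the members. Ifi203 and Mndal were higher in both week 5 libraries but were not called, and Aim2 stood at nearly the same level in the 4 libraries. In 6 of the 7 members, all but Aim2, both week 5 libraries lay above both week 0 libraries, an order that 21% of all genes tested also had.

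Ifi204 was counted in week 0 replicates 1 and 2 with 53 and 75 UMIs, and in week 5 replicates 1 and 2 with 1465 and 748. Scaled to the effective library size, its week 0 levels were 20.9 and 16.0 CPM, rising to 271 and 226 CPM by week 5. Both week 5 libraries were far above both week 0 libraries, which differed little from each other. The log2 fold change was 3.77 (SE 0.27, 95% interval 3.18 to 4.36, edgeR adjusted p = 0.000144), a ratio of mean levels of 13.5.

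Ifi207 had week 0 levels of 13.8 and 4.05 CPM, and week 5 levels of 126 and 70.5 CPM. The replicates of each week differed, yet the lower week 5 library was above the higher week 0 library. Its log2 fold change was 3.61 (SE 0.47, edgeR adjusted p = 0.00288). Ifi211 had only 6 and 10 UMIs at week 0, or 2.36 and 2.13 CPM, and reached 59.5 and 25.1 CPM at week 5, with a log2 fold change of 4.25 (SE 0.48, edgeR adjusted p = 0.00159). Ifi211 was thus barely detected in untreated mice. Ifi209 went from 13.8 and 7.47 CPM to 57.8 and 48.7 CPM, a log2 fold change of 2.39 (SE 0.30, edgeR adjusted p = 0.00255). These 4 calls held under all 16 alternative settings tried, with adjusted p of at most 0.0228.

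Ifi203 had week 0 levels of 11.8 and 2.35 CPM, and week 5 levels of 13.3 and 39.3 CPM. Mndal, its neighbour with the same upstream stretch and a myeloid nuclear antigen by name, was at 11.02 and 2.35 CPM and then at 11.5 and 26.9 CPM. In both genes week 0 replicate 1 and week 5 replicate 1 were almost equal, and the other week 0 and week 5 libraries were the lowest and the highest. Their log2 fold changes were 2.02 (SE 0.65) and 1.64 (SE 0.61), and neither passed (edgeR adjusted p = 0.166 and 0.240). With each library left out in turn the log2 fold change ran from 1.09 to 3.43 for Ifi203 and from 0.77 to 2.98 for Mndal. Such fits set 1 library against 2, and the lone library is assumed to vary like the others, which its p-values cannot check. Both genes were called with week 0 replicate 1 left out and with week 5 replicate 1 left out, where Ifi203 had an adjusted p of 0.000231 and 1.26e-13 and Mndal of 0.000732 and 3.46e-06; over all alternatives the adjusted p of Ifi203 ran from 1.26e-13 to 0.378 and that of Mndal from 3.46e-06 to 0.657. The ratio of Ifi203 to Mndal UMIs was 1.07 and 1.00 at week 0 and 1.16 and 1.46 at week 5, so the pair kept close to each other in every library.

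Aim2, the inflammasome sensor, was counted with 180, 413, 457 and 268 UMIs in week 0 replicates 1 and 2 and week 5 replicates 1 and 2. Its levels were 70.8, 88.1, 84.7 and 81.0 CPM, and the week 5 values lay between those of week 0. The log2 fold change was 0.06 (SE 0.21, 95% interval -0.41 to 0.52, edgeR adjusted p = 0.957). Its sign turned to -0.17 with library size as the only scaling and to -0.10 without week 0 replicate 1, and it was called under no setting.

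**Figure D2:**
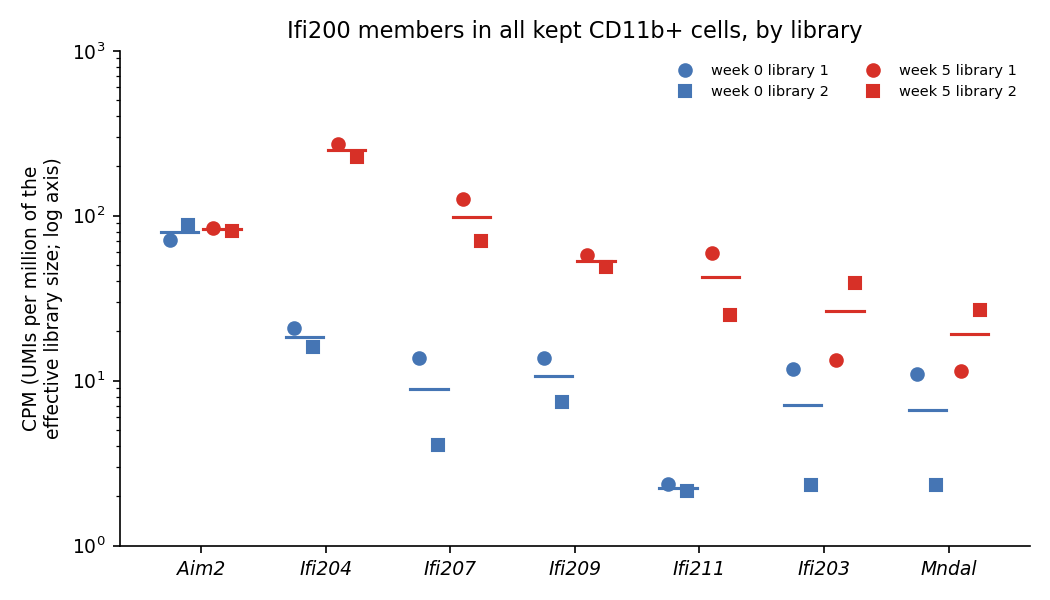
Level of each member in the 4 libraries, as CPM of the effective library size on a log axis, all kept cells summed; horizontal bars are means of the 2 libraries of a week. Ifi204 lies between 16.0 and 20.9 CPM in the week 0 libraries and between 226 and 271 CPM in the week 5 libraries, whereas the 4 Aim2 values lie between 70.8 and 88.1 CPM.

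Taking Aim2 as a reference inside each library removes the scaling between libraries. There were 0.294 and 0.182 Ifi204 UMIs per Aim2 UMI at week 0 and 3.21 and 2.79 at week 5. For Ifi211 the ratio was 0.0333 and 0.0242 at week 0 and 0.702 and 0.310 at week 5. Ifi204, Ifi207, Ifi209 and Ifi211 each had both week 5 ratios above both week 0 ratios (2-sided exact permutation p = 0.333 for each, the smallest that 2 libraries against 2 can give). For Ifi203 and Mndal the ratios of the weeks overlapped (exact permutation p = 0.667 for each).

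The share of cells in which a member was detected was compared after thinning each cell to 1000 UMIs, which left 778, 815, 897 and 809 cells in week 0 replicates 1 and 2 and week 5 replicates 1 and 2; 145, 70, 61 and 105 shallower cells were left out. Ifi204 was found in 1.16% (exact Clopper-Pearson 95% interval 0.53 to 2.18) and 1.23% (0.59 to 2.24) of the thinned cells at week 0, and in 17.8% (15.4 to 20.5) and 18.4% (15.8 to 21.3) at week 5. The weeks were far apart and the replicates of a week within counting error. Without thinning the shares were 3.47%, 3.84%, 47.9% and 34.9%, and the 2 week 5 libraries then differed in the order of their depth. Intervals cover counting error only.

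The other members were found in fewer cells. Ifi207 went from 0.90% and 0.37% of thinned cells to 5.57% and 6.06%, and Ifi209 from 1.16% and 1.84% to 3.90% and 4.94%. Ifi211 was found in 0 of 778 cells, which allows a share of up to 0.386% by the limit of 3 counts of the total (exact upper bound 0.473%), and in 0.25% of cells at week 0, and in 2.01% and 2.22% at week 5. Ifi203 was found in 0.77%, 0.12%, 1.11% and 2.22% of cells, and Mndal in 0.39%, 0, 0.78% and 1.48%, in the same order of libraries, where the 0 of 815 cells allows up to 0.368% by the same limit (exact upper bound 0.452%). Aim2 was found in 6.81%, 8.47%, 7.47% and 7.42% of thinned cells, so the weeks overlapped. Unthinned, the Aim2 shares were 16.0%, 30.8%, 32.6% and 22.2%, the order of the libraries by depth. At least 1 member was detected in 10.3% and 11.8% of thinned cells at week 0 and in 30.2% and 32.0% at week 5. Without Aim2 these shares were 3.60%, 3.44%, 25.1% and 27.4%. As a measure of free RNA, the 32 kept cells named choroid plexus-like or oligodendrocyte-like (median 2627 UMIs, not thinned) held no UMI of any member, which allows a share of up to 9.38% by the limit of 3 counts; no cell type is sure to lack interferon-inducible genes.

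**Figure D3:**
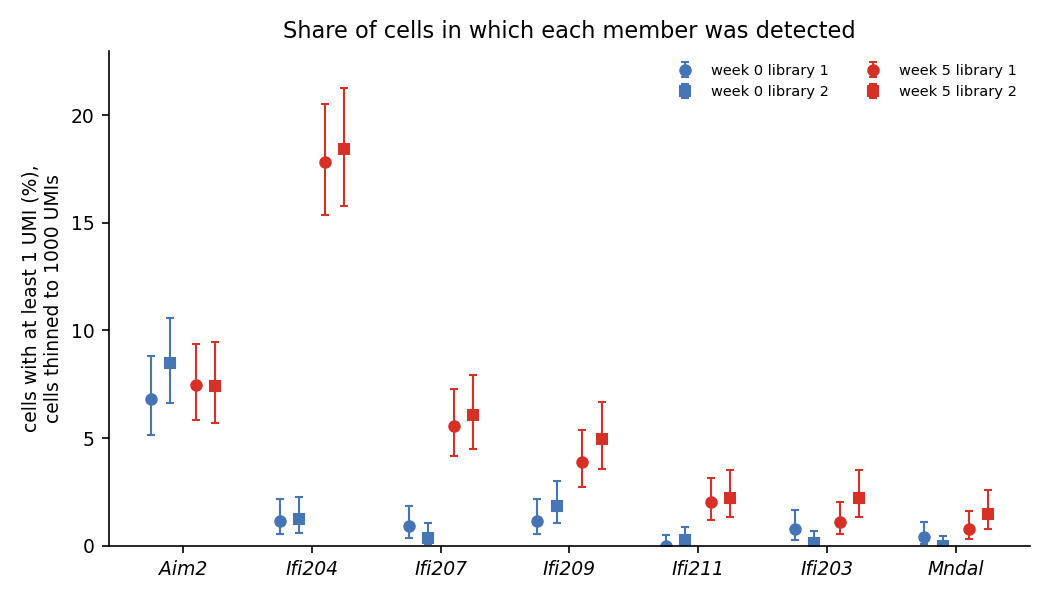
Share of cells with at least 1 UMI of each member, in percent of cells thinned to 1000 UMIs, by library; bars are exact 95% intervals. The week 5 shares of Ifi204 (17.8% and 18.4%) stand clear of its week 0 shares (1.16% and 1.23%), and the Aim2 shares of the weeks overlap.

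Cells were clustered without the genes of the family, and clusters were named from marker lists. Of the 3680 cells, 3395 were microglia-like (898 and 880 at week 0, 850 and 767 at week 5) and 100 fell into a border-associated macrophage-like cluster led by H2-Eb1, H2-Aa, Mrc1, Cd74 and Pf4 (21 and 5 at week 0, 33 and 41 at week 5). Levels per cluster are descriptions, since other interferon-inducible genes took part in the clustering. They are given as cluster CPM, counts per 1000000 UMIs of the summed cells. Because the names were rebuilt here, they may differ from the study's own.

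The members split by the cells they came from. Of the 243 Ifi203 UMIs, 212 (87.2%) came from the 100 cells of the macrophage-like cluster, and of the 190 Mndal UMIs 164 (86.3%). A finer clustering, given below, put 2 populations in place of this cluster. The smaller held no Mrc1 or Pf4 UMI, so these shares describe a mixed cluster and not macrophage-like cells alone. Microglia-like cells held 88.6% of the Ifi204 UMIs, 79.2% of Ifi207, 88.4% of Ifi209, 86.2% of Ifi211 and 96.4% of Aim2. In microglia-like cells Ifi203 was at 0.76 cluster CPM at week 0 and 2.69 at week 5, in the macrophage-like cluster at 259 and 439. Mndal was at 1.07 and 2.13 in microglia-like cells and at 231 and 329 in the macrophage-like cluster. Among microglia-like clusters, the 26 week 0 cells of the Cxcl10-led one had 35.7 (Ifi203) and 49.9 (Mndal) cluster CPM, each from 2 cells. The macrophage-like cluster made up 2.28% and 0.565% of the cells at week 0 and 3.44% and 4.49% at week 5, the same order of libraries as the levels of Ifi203 and Mndal. The part of this cluster's share in their levels was not tested; too few UMIs remained in microglia-like cells for either gene to be tested there.

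In microglia-like cells alone, Ifi204 stood at 15.8 and 15.9 cluster CPM at week 0 and at 226 and 210 at week 5. Ifi207 stood at 3.2 in each week 0 library and at 96.8 and 55.7 at week 5. Ifi211 stood at 0 and 1.2, then at 50.7 and 17.4, and Ifi209 at 12.2 and 7.6, then at 49.2 and 42.5. Aim2 stood at 77.0 and 95.004, then at 72.0 and 87.4. Ifi204, Ifi207, Ifi209 and Ifi211 were all called higher in the microglia-like sums as well, with edgeR log2 fold changes of 4.03, 4.86, 2.54 and 5.79. Aim2 was not (log2 fold change 0.12). The size of the Ifi211 change depends on the fit, since the week 0 sums held few UMIs of it and that of replicate 1 none. A finer clustering put 172 of the microglia-like cells, 163 of them from week 0 replicate 2, into a cluster named neutrophil-like, led by S100a9, S100a8 and Retnlg, with summed microglia markers of 38784 CPM and neutrophil markers of 2065 CPM. Without these cells the 4 genes were called as well, with log2 fold changes of 3.95, 4.73, 2.44 and 5.66, and Aim2 was not (0.10). Of the 1778 microglia-like cells of week 0, 39.1% lay in a cluster led by S100a9, S100a8 and P2ry12, mostly from replicate 2, and 35.3% in one led by nuclear transcripts such as Malat1. Of the 1617 of week 5, 28.0% lay in a cluster led by Cxcl10 and Ccl4, 25.5% in the Malat1 cluster and 15.1% in one led by Spp1 and Apoc1.

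Within every microglia-like cluster that held more than 20 cells in both weeks, Ifi204 was higher at week 5. In the P2ry12-led and Cst3-led cluster it was at 18.9 and 148 cluster CPM at weeks 0 and 5, in the Malat1 cluster at 21.1 and 322, and in the S100a9-led cluster at 11.3 and 83.6. In the Cxcl10-led cluster it was at 107 (26 cells) and 240 (452 cells), and in the B430010I23Rik-led cluster at 4.23 (from 1 UMI) and 359. The increase was thus spread over clusters that kept homeostatic leading genes and clusters that did not. The Spp1-led cluster, 244 of whose 246 cells were from week 5, stood at 244, and an unnamed cluster led by Lilrb4a and Lpl, 151 of whose 153 cells were from week 5, at 537. In that unnamed cluster microglia markers summed to 12707 CPM and monocyte markers, the next class, to 368. The microglia sum of the Spp1-led cluster was 11868 CPM. The cluster stayed unnamed because 1 leading gene was a monocyte marker, and the microglia-like levels and fits leave it out.

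That finer clustering, chosen after the data were seen, also separated smaller populations. It set apart 25 microglia-like cells led by Cxcl10, Cxcl9, Ccl12 and Ifit3, all from week 5 (18 and 7). All 25 had Ifi204 UMIs, at 1242 cluster CPM, 20 had Ifi207 (540), 21 had Ifi209 (298) and 14 had Ifi211 (298). Aim2 was at 143 cluster CPM in these cells, and Mndal at 24.8, from 1 cell. This population, which other interferon-stimulated genes also mark, had the highest level of Ifi204 among all 20 finer clusters, so the genes that rose with cuprizone were also high together in 1 small group of cells.

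The finer clustering also held 2 populations in place of the macrophage-like cluster. The larger, 73 cells (15 and 4 at week 0, 28 and 26 at week 5), was led by H2-Eb1, H2-Aa and Mrc1 and held all of the Mrc1 and Pf4 UMIs counted in the pair. The smaller, 29 cells (6 and 1 at week 0, 5 and 17 at week 5), was led by Ccl5, Ms4a4b and Tmsb10, held no Mrc1 or Pf4 UMI, and had UMIs of the lymphocyte genes Nkg7, Cd3e and Trbc2 only in week 5 replicate 2; it stays unnamed. Ifi203 was at 242 and 349 cluster CPM at weeks 0 and 5 in the larger and at 304 and 653 in the smaller, and Mndal at 242 and 275 and at 203 and 476. Ifi204 was at 171 and 307 in the larger and at 177 and 80.7 in the smaller. Ifi203 and Mndal were thus high in both populations, and the T or NK cell markers were highest in the library in which Ifi203 and Mndal were highest; their part in these levels was not tested.

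**Figure D4:**
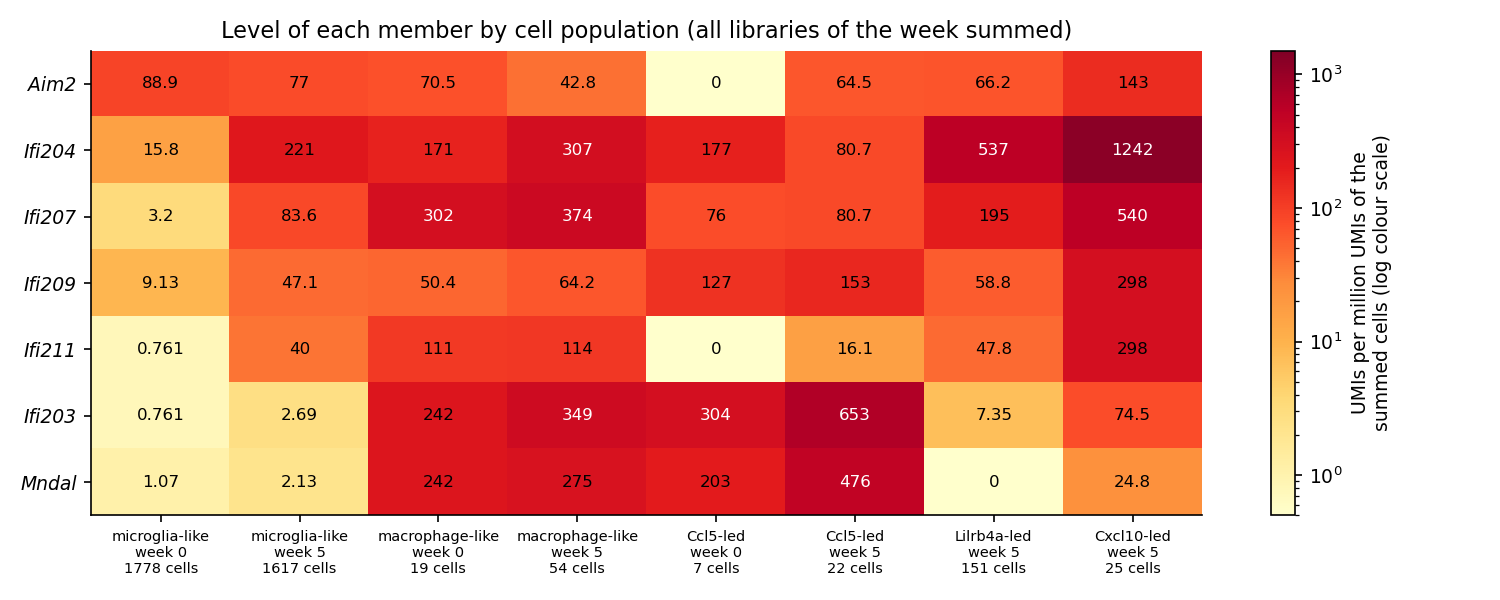
Level of each member by cell population and week, as cluster CPM on a log colour scale with the value printed. Microglia-like and Lilrb4a-led cells are from the coarser clustering, the others from the finer one; Ifi203 and Mndal stand at 203 to 653 in macrophage-like and Ccl5-led cells and at most at 2.69 in the summed microglia-like cells of a week, though at 74.5 and 24.8 in the 25 Cxcl10-led cells among them.

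Macrophage-like cells already had Ifi204, Ifi207 and Ifi211 at week 0. In the finer macrophage-like population Ifi204 was at 138 and 309 cluster CPM at week 0 and at 258 and 386 at week 5, and Ifi207 at 313 and 258, then at 345 and 423. Ifi211 was at 75.1 and 258, then at 57.4 and 207, so that the weeks overlapped for Ifi204 and Ifi211, and for Ifi207 both week 5 libraries were higher. In an edgeR fit of these sums, added after the data were seen, 0% of 1521 genes were called in either direction (29 had an unadjusted p under 0.05), and the log2 fold changes of Ifi204, Ifi207 and Ifi211 were 0.82 (SE 0.52), 0.42 (SE 0.40) and 0.08 (SE 0.84). The sums rest on 4 to 28 cells per library.

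For Ifi204, Ifi207 and Ifi211 the week effect was smaller in macrophage-like than in microglia-like cells. In 1 model over both populations, with library as a block, the week effect on the log2 scale differed, as macrophage-like minus microglia-like cells, by -2.94 for Ifi204 (SE 0.70, edgeR adjusted p = 0.0170), by -3.96 for Ifi207 (SE 0.72, adjusted p = 7.02e-05) and by -5.75 for Ifi211 (SE 1.13, adjusted p = 0.000528). In this comparison 0.171% of 9963 genes were called in either direction. Microglia-like cells of week 0 replicate 1 held no Ifi211 UMI. Those of week 0 replicate 2 held 4 in the S100a9-led cluster and 1 in the Cxcl10-led cluster. The size of the Ifi211 difference therefore depends on the fit, and with a library left out it ran from -8.21 to -3.99. The differences for Ifi209 (-1.75, SE 1.13), Ifi203 (-1.04, SE 0.91), Mndal (-0.61, SE 0.90) and Aim2 (-0.54, SE 0.92) were not called, and whether the members differ from each other in this was not tested. All 3 calls were lost without week 5 replicate 1, where the differences were -2.51, -3.32 and -3.99, and that of Ifi204 was lost whichever of the 4 libraries was left out, with differences of -3.38 to -2.51. Without week 0 replicate 1, which leaves 4 macrophage-like cells at week 0, the call for Ifi207 was also lost (-3.46, adjusted p = 0.262).

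Members were also found together in single cells. At least 2 members were detected in 0.771% and 0.368% of thinned cells at week 0 and in 6.35% and 8.28% at week 5. Among thinned week 5 cells with an Ifi204 UMI, 13.1% and 15.4% (replicates 1 and 2) also had Ifi207, against 3.93% and 3.94% of those without. For Ifi209 the shares were 7.50% and 9.40% against 3.12% and 3.94%, and for Ifi211 6.88% and 3.36% against 0.95% and 1.97%. Aim2 was found in 8.75% and 12.1% of the cells with Ifi204 and in 7.19% and 6.36% of those without. The order was the same in both libraries for all 4, and also for Ifi203 (1.88% against 0.95%, and 2.68% against 2.12%). Only 3 and 4 cells held both Ifi203 and Ifi204. Mndal went in opposite directions in the 2 libraries (1.88% against 0.54%, and 0.67% against 1.67%). Cells differ in type, so this describes cells, not pairs of genes.

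Of the other genes of the family, 5 were in the tables and the 4 that passed the filter on low counts were called higher at week 5. None of these 4 reached the limit of the filter in both week 0 libraries. They were thus tested because of their week 5 counts, and their common direction only describes them. With no gene filter all 4 were called as well. Ifi206 went from 3.15 and 1.07 CPM to 31.3 and 26.9 CPM (log2 fold change 3.95, SE 0.41, edgeR adjusted p = 0.00113). Ifi213 went from 2.75 and 1.07 CPM to 20.7 and 28.1 CPM (3.80, SE 0.43, adjusted p = 0.00165), and Ifi214 from 1.57 and 0.21 CPM to 6.48 and 9.98 CPM (3.43, SE 0.73, adjusted p = 0.0360). In all 3 the weeks did not overlap. Ifi205 had no UMI at week 0 and 28 and 10 UMIs at week 5, at least 12.5-fold and 7.29-fold higher in replicates 1 and 2 than a floor of 3 UMIs over both week 0 libraries (adjusted p = 0.0271). Ifi208 had 7 UMIs, all in week 5 replicate 2, and was not tested. Ifi202b, Pydc3, Pydc4 and Pyhin1 were not analysed here under these names. Of the 4 calls, those of Ifi205 and Ifi214 were lost without week 0 replicate 2. With all libraries kept, the call of Ifi214 was also lost under the DESeq2 Wald test and under limma-voom.

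Most partners and downstream genes of the sensors were not called. Of 20 tested genes of cytosolic and endosomal DNA sensing, 3 rose and 0 fell, with a median log2 fold change of 0.12. The share called higher was 15%, against 2.56% of all genes tested. Irf7, which drives interferon genes, rose from 5.90 and 5.55 CPM to 61.7 and 52.6 CPM (3.32, SE 0.26, edgeR adjusted p = 0.00023). Zbp1, a sensor of Z-form nucleic acid, and the kinase Ikbke rose by log2 fold changes of 3.90 and 4.87. Neither reached the limit of the filter on low counts in both week 0 libraries. Cgas, the DNA-sensing enzyme, was at 48.0 and 55.3 CPM and then at 54.7 and 60.8 CPM (0.15, adjusted p = 0.836). Sting1, listed as Tmem173, was at 359 and 404 CPM and then at 255 and 282 CPM, both week 5 libraries lower, and did not pass (-0.51, SE 0.25, adjusted p = 0.431). Unc93b1, which carries endosomal receptors, was at 908 and 1034 CPM and at 928 and 1057 CPM.

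Among 15 tested genes of inflammasomes and pyroptosis, 2 rose and 0 fell, with a median of 0.14. That is 13.3% called higher, against 2.56% of all genes tested. Il1b rose from 9.05 and 4.91 CPM to 28.9 and 27.2 CPM (2.08, SE 0.32, edgeR adjusted p = 0.00695). Il1rn, the interleukin-1 receptor antagonist, had no UMI at week 0 and was at least 14.3-fold and 16.0-fold higher at week 5. It passed the filter on low counts through its week 5 libraries. Pycard, the adaptor of Aim2, was at 359 and 473 CPM and at 525 and 390 CPM (0.14, adjusted p = 0.913), so the weeks overlapped, and Nek7 was not called either (-0.18). Casp1, the protease of the Aim2 complex, was at 41.7 and 35.2 CPM and at 53.7 and 43.2 CPM (0.35, adjusted p = 0.587). Aim2 and its direct partners were thus all without a call.

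Of 12 tested interferon receptor and factor genes, 3 rose and 0 fell (median 0.19), among them the factors Stat2 (1.24, SE 0.22) and Irf9 (0.93, SE 0.21). The receptor gene Ifngr1 (-0.11) and the factor Irf8 (0.06) were not called. Of 12 RNA-sensing genes, 3 rose and 0 fell (median 0.60): Oas1a (4.42, SE 0.43), Dhx58 (1.69, SE 0.31) and Eif2ak2 (1.17, SE 0.26). Tlr7 (0.02) and Tlr3 (-0.23) were not called. In each of these lists 25% of the tested genes were called higher, against 2.56% of all genes tested. Oas1a passed the filter on low counts through its week 5 libraries.

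Of 21 tested canonical interferon-stimulated genes, 20 rose and 0 fell, with a median log2 fold change of 2.99. That is 95.2% called higher, against 2.56% of all genes tested. Through their week 5 libraries, 6 of the 21 passed the filter on low counts. Oasl2 rose by 4.31 (SE 0.30), Usp18 by 4.28 (SE 0.34) and Rtp4 by 3.22 (SE 0.28), and Ifit3 rose from 13.8 and 11.1 CPM to 117 and 78.9 CPM. Ifi35 was at 29.9 and 43.3 CPM and at 59.1 and 62.6 CPM and was not called (0.71, edgeR adjusted p = 0.168). The log2 fold changes of Ifi204 (3.77), Ifi207 (3.61) and Ifi211 (4.25) lay within the range of these genes, and that of Aim2 lay below all 21.

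**Figure D5:**
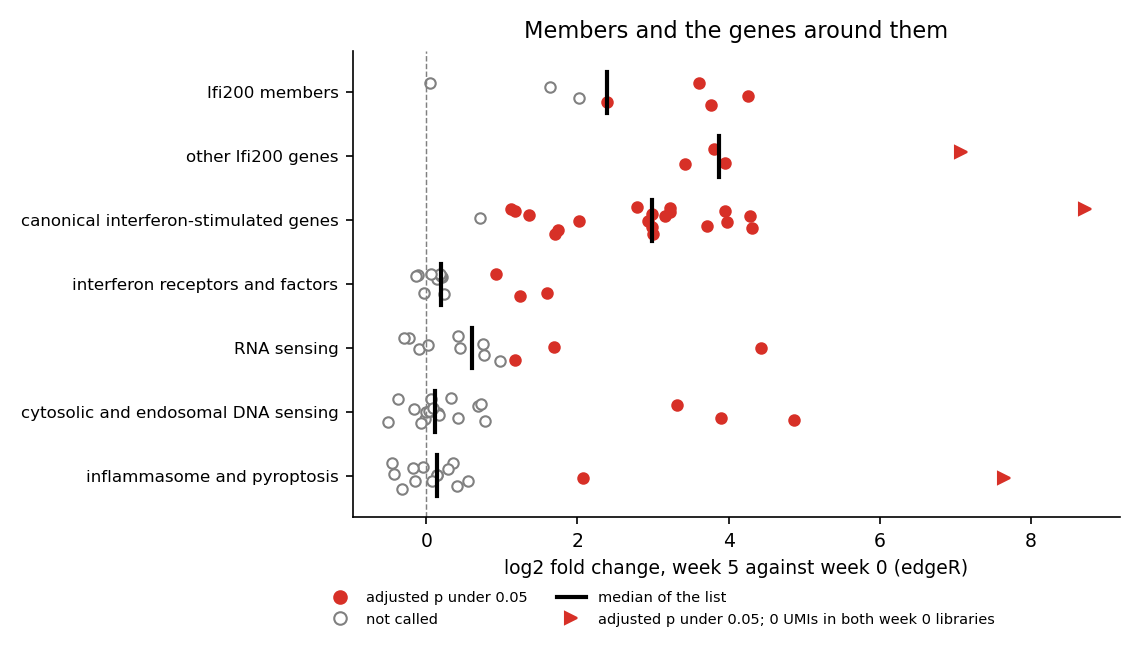
Log2 fold change of week 5 against week 0 for each tested gene of the family and of 5 lists around it; filled symbols passed an adjusted p under 0.05, triangles had no UMI at week 0 so that their position depends on the fit, and black bars are medians. All but 1 of the 21 interferon-stimulated genes are filled, against 3 of 20 DNA-sensing genes and 2 of 15 inflammasome genes.

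The genes whose week 5 pattern across cells was most like that of the summed members were sought over 15 sums of a cluster in a library (at least 20 cells each), as Pearson's r of log2(CPM + 10) among 3577 genes with a mean of at least 50 CPM. The first 5 were Itga4, an integrin subunit (r = 0.86), Oasl2, an interferon-stimulated gene (0.85), Samd9l (0.84), H2-Eb1, an MHC class II chain (0.84), and Gpr65, a proton-sensing receptor (0.84). Of these 5, 1 (Oasl2) was also among the first 5 by Spearman's rho, and 2 (Oasl2 and Gpr65) at the finer clustering. The sums share libraries, and they differ in depth. The summed members were highest in the macrophage-like cluster, at 1269 and 1788 cluster CPM in week 5 replicates 1 and 2, and H2-Eb1 is a leading gene of that cluster. The ranking without this cluster was not tested. Set against the sum of the other 6 members over the same 15 sums, the r of Ifi203 was 0.71, of Mndal 0.67, of Ifi207 0.65, of Ifi211 0.60, of Ifi209 0.29, of Ifi204 0.11 and of Aim2 -0.50. Aim2 thus stood apart from the other members in sign.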

How the data were processed

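The files that the authors deposited hold raw UMI counts (whole numbers, genes by barcodes). STAR, Cell Ranger 3.0.0, Seurat 4 and mouse build mm10 are named, with no role, per the submitters' processing notes. A gene absent from a table counted as 0. The sources used here do not say how the 1000 barcodes per table were chosen. Barcodes under 500 genes or over 10% mitochondrial UMIs (272 of 4000) were left out, as were 48 of the other 3728 (1.29%) that scrublet, run in scanpy 1.11.5, called doublets. Cells were clustered without the family's genes (2000 variable genes, 30 principal components, 15 neighbours, Leiden resolution 1, or 2 for the finer clustering) into 10 and 20 clusters. They were named from marker lists by a rule settled after the clusters had been seen: microglia-like where no other class has more leading markers and the sum of microglia markers is 5 times that of every other class or more.

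Counts were summed per library and tested with edgeR 4.0.16 (R 4.3.3; quasi-likelihood test, TMM, filterByExpr for low counts, Benjamini-Hochberg adjustment). On simulated data with the same means and library sizes (11045 genes), 46.3% of the 2-fold changes were found and 99.5% of the 4-fold ones, and 8.95% of calls were false. The changed genes were drawn only from those above a set mean level. Ifi211, Ifi203 and Mndal lay below it (mean log2 CPM 4.56, 4.07 and 3.71), as did the other family genes, so these rates do not cover them. The test between populations (9963 genes) found 72% of 8-fold differences in genes with at least 10 UMIs on average in the macrophage-like sums, with 1.62% false calls. Thinning drew UMIs without replacement. CPM are per 1000000 of the effective library size. Alternatives were other scalings, DESeq2 1.42.0, limma-voom (limma 3.58.1), other filters, thinning, microglia-like cells only, with or without the neutrophil-like cluster, each library left out and the replicate number as a block.

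The members and gene lists were chosen with earlier results of these data known. Besides the members, the text names every other family gene tested, Pycard, Casp1, Cgas and Sting1, in each list up to 4 called genes with the lowest adjusted p and the 2 highest-level genes not called, and the 5 genes most like the members. A called gene that this rule picks is not reported here. Clusters, finer populations and their leading genes were named after their values were seen.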

Additional observations from a re-analysis of the deposited data

Results flagged for a closer look

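The effect of week 5 was smaller in border-associated macrophage-like cells than in microglia-like cells for Ifi204 (difference -2.94 on the log2 scale), Ifi207 (-3.96) and Ifi211 (-5.75), by an edgeR test of the difference itself with library as a block, added after the data were seen. In microglia-like cells Ifi211 went from 0.76 to 40.0 cluster CPM over the libraries of each week, and in the macrophage-like cells of the finer clustering it stood at 111 and 114. The macrophage-like sums hold 15, 4, 28 and 26 cells, and all 3 calls were lost without week 5 replicate 1. The sign was the same in all 5 alternatives for the 3 genes. The size of the Ifi211 difference depends on the fit, since microglia-like cells of week 0 replicate 1 held no UMI of it.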

How the results depend on the processing

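The calls of Ifi204, Ifi207, Ifi209 and Ifi211 were made under all 16 alternatives, 1 of them (microglia-like cells without a neutrophil-like cluster) added after the data were seen. With each library left out in turn, 4 to 6 members and 232 to 1459 genes were called (the highest without week 5 replicate 2), 2 to 4 other family genes, 2 to 3 DNA-sensing, 2 to 6 RNA-sensing, 0 to 3 interferon receptor and factor genes and 16 to 21 interferon-stimulated genes; the cause was not tested. Called genes in all were 312, and 905 with no gene filter (6 members), 534 with cells over 2996 genes left out (5 members) and 140 with thinned cells, where 2 other family genes, 0 inflammasome and 1 receptor or factor gene were called among 8500 genes tested. With library size as the only scaling, 77.1% of calls were higher against 92.0%, the median of all genes moved to -0.23, and Aim2 to -0.17; with a library left out Aim2 ran from -0.10 to 0.23. The difference in shares between weeks, 20.1 percentage points for any member and 22.7 without Aim2, was 33.5 and 43.8 unthinned, 13.6 and 14.1 at 500 UMIs, and 18.3 and 20.4 in microglia-like cells. The test between populations called 0 to 2 members with a library left out; the difference of Aim2 then ran from -1.17 to 9.69 (the highest without week 0 replicate 1, which leaves a macrophage-like sum with no Aim2 UMI at week 0) and that of Mndal from -1.24 to 0.40. With the replicate block, 5 members (Ifi203 added, edgeR adjusted p = 0.0352) and 440 genes were called. Whether the replicate numbers pair the libraries is not known. The deviations of the replicates 1 had a correlation of -0.04 over 11232 genes. This cannot decide it, as the libraries also differ in depth and in the other cells they hold. Of the 5 genes most like the members, 1 (Oasl2) was among the first 5 by Spearman's rho and 2 (Oasl2, Gpr65) at the finer clustering. No alternative could be run for neighbouring genes, as none was tested. The list of other family genes has a median of 3.88, or 3.61 with Ifi205 at its bound. With 2 libraries a week, no permutation p goes below 0.333, and members with few UMIs at week 0 have wide errors.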
